A study of Homo sapiens with 16 samples.

Results

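Rocaglamide A (RocA), a plant-derived inhibitor of translation, was compared at 0.3 µM with its solvent DMSO by ribosome profiling in 4 established human cancer cell lines. The comparison used 4 libraries titled as RocA at 0.3 µM, 1 per line, and 8 DMSO libraries, 2 per line: 12 of the 16 libraries of the series. The other 4 libraries, RocA at 3 µM, entered only where the doses were set side by side. NCI-H1650 and NCI-H520 are lung cancer lines, Hs 936.T and A375 are melanoma lines, all labelled wild type, and exposure lasted 30 min in every group. The lines were the replicates of the treatment (n = 4), so a value of 1 line has no replicate check, and nothing in the labels says whether the paired DMSO libraries came from separate cultures. By its title, the study treats 2 RNA helicases, eIF4A and DDX3, as what RocA acts on.

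In ribosome profiling, mRNA outside ribosomes is digested away and the protected pieces, or footprints, are sequenced, which gives for each gene a measure of its ribosomes in the sample. During initiation, the helicase eIF4A unwinds the 5′ end of an mRNA so that the small ribosomal subunit can load and scan to the start codon. Rocaglates hold eIF4A on purine-rich RNA, and a clamped eIF4A in the leader blocks the scanning subunit. Counts were scaled within each library. A rise or fall is therefore a shift against the rest of the genes, and a loss common to all genes was not measured. No mRNA levels were used, and a change in footprints can hold a change in mRNA.

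The deposited entries carry no gene names here, and 12981 coding genes were named by matching the coding lengths of neighbouring entries to an annotation. Over these genes the treated libraries held 187045 to 731430 counts and the DMSO libraries 716951 to 4064848. The treated total was 12.9% of the mean DMSO total in A375 and 38.3% in NCI-H520, with NCI-H1650 and Hs 936.T between them. The 2 DMSO libraries of a line correlated across genes at r of 0.960 to 0.992 and their counts gave a chi-square of 1.56 to 2.68 per degree of freedom, more than sampling noise, so each was kept as a library of its own. Marker genes were read as a check of the lines. The 7 epithelial genes summed to 21402 CPM (counts scaled to a common library total) with RocA and to 17164 and 18400.2 CPM with DMSO in NCI-H1650, with KRT8 far above both DMSO libraries and CDH1, KRT18 and CLDN7 below them. The melanocyte genes summed to 44806 CPM with RocA and to 27176 and 27562 CPM with DMSO in Hs 936.T. There PMEL had 38030 CPM with RocA, against 18400 and 19042 CPM with DMSO. SLC45A2, GPR143 and MC1R were also above both DMSO libraries, while TYRP1, DCT, MITF, TRPM1, RAB27A and S100B were below both. Alveolar genes were at or near 0 in all 12 libraries, and squamous genes were near 0 in NCI-H520 and summed to 139 CPM with RocA and to 207 and 222 CPM with DMSO in NCI-H1650. The 4 neuroendocrine genes summed to 818 CPM with RocA and to 1096 and 1145 CPM with DMSO in NCI-H520. Nearly all of this was UCHL1, with 795 CPM with RocA and 1074 and 1128.5 CPM with DMSO. CHGA was at 0 in the NCI-H520 libraries, and SYP and NCAM1 were low. In NCI-H520, a lung line, the 10 melanocyte genes summed to 256 CPM with RocA and to 857 and 2081 CPM with DMSO, above the 84.2 to 162 CPM of NCI-H1650 and A375; their part in the results of that line was not tested, and counts are also given without NCI-H520. In such bulk libraries, fewer cells of a kind and fewer footprints per cell cannot be told apart. Whether the melanocyte footprints in the NCI-H520 libraries came from NCI-H520 cells was not tested. For 2 libraries of NCI-H520, DMSO replicate 2 and RocA at 3 µM, the cell-line label reads NCI-H521, and both were grouped by their titles.

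RocA at 0.3 µM redistributed footprints among most genes that could be tested. Of 6902 tested genes, 4246 (61.5%) passed the threshold of 0.05 on adjusted p (edgeR, quasi-likelihood, with cell line as a term, Benjamini-Hochberg): 1977 were higher with RocA (28.6%) and 2269 lower (32.9%). The median change over all tested genes was -0.09 on the log2 scale. By at least 2-fold, 864 genes were higher and 1354 lower. Among the 3347 well-counted genes, those with a mean of at least 50 CPM over the 12 libraries, 2432 (72.7%) were called, 1312 higher (39.2%) and 1120 lower (33.5%). That mean includes the treated libraries, so a gene can pass the limit through its rise or miss it through its fall. The share of rises in this set, and which genes rank as the largest rises, therefore depend partly on the filter. Among the 4246 called genes, the direction of change was shared by the 4 lines for 3586 (84.5%). Calling by a fit across these lines favours genes whose lines agree, so a high share was partly built in. It is not separate evidence of a shared response, and the share over all tested genes is not given here. The lines also differed from each other under DMSO, and levels failed to overlap for fewer genes: every treated library lay above every DMSO library for 364 genes (5.27%) and below for 696 (10.1%). Without NCI-H520, 1878 genes were higher and 2189 lower of 7279 tested.

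The largest rises with adequate counts were on genes of quite different roles, and several encode very long proteins. They were led by ZFP36, whose protein binds AU-rich elements and promotes mRNA decay. ZFP36 had 1046, 38.2, 26.4 and 189.6 CPM with RocA in NCI-H1650, NCI-H520, Hs 936.T and A375, the order of lines used throughout, against 5.64 to 94.0 CPM (median 20.1) with DMSO. The groups overlapped, with both treated NCI-H520 and Hs 936.T below the DMSO libraries of NCI-H1650 and treated Hs 936.T also below those of A375. Within each line the treated library was higher, and the fitted change was 3.12 ± 0.20 (log2, SE; adjusted p = 4.2e-11; 2.52 without NCI-H1650; edgeR quasi-likelihood, Benjamini-Hochberg, as for every adjusted p in the comparison with DMSO). IER3, an immediate early response gene, had 441, 129.9, 416 and 2176 CPM with RocA, against 21.6 to 423 CPM (median 56.1) with DMSO, a change of 2.72 ± 0.11. The giant scaffold gene AHNAK had 1281, 160.4, 52.8 and 2053 CPM with RocA and 16.2 to 326 CPM (median 99.2) with DMSO, a change of 2.65 ± 0.24. AHNAK was low in NCI-H520 and Hs 936.T and high in NCI-H1650 and A375 under both treatments, and both IER3 and AHNAK overlapped between groups.

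Several of the largest rises were on genes of very large proteins. DYNC1H1, the heavy chain of cytoplasmic dynein, had 945, 1039, 2027 and 633 CPM with RocA, against 63.2 to 360.3 CPM (median 204) with DMSO, a change of 2.50 ± 0.21 (adjusted p = 3.7e-06). MDN1, which encodes the AAA ATPase midasin of large ribosomal subunit assembly, had 134, 229, 357 and 101 CPM with RocA, against 23.6 to 74.2 CPM (median 42.5) with DMSO, a change of 2.27 ± 0.14 (adjusted p = 3.8e-13). KMT2A, a histone H3 lysine methyltransferase, had 269, 241, 113 and 202 CPM with RocA, against 30.4 to 57.3 CPM (median 39.6) with DMSO, a change of 2.26 ± 0.15 (adjusted p = 9.6e-13). In these 3 genes every treated library was above every DMSO library. DYNC2H1, the heavy chain of the dynein of cilia, rose by 2.40 ± 0.16 and PLEC, the cytoskeletal linker plectin, by 2.27 ± 0.22. Shorter genes completed the rises. ICMT, which methylates prenylated proteins, had 221, 118, 102 and 165 CPM with RocA and 23.7 to 65.7 CPM (median 32.8) with DMSO, without overlap. NAA25, the auxiliary subunit of the NatB amino-terminal acetyltransferase, rose by 2.17 ± 0.11.

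The 12 largest rises had a median of 3294 coding codons and the 12 largest falls 403, against 433 over the well-counted genes. Length did not order the genes as a whole. For 218 well-counted genes of more than 1600 codons the median change was 0.28, with 44.5% higher and 27.1% lower and line medians of -0.07 in NCI-H520 and 0.15 to 0.21 in the others, and for 523 genes of 100 to 200 codons it was 0.22, with 46.1% higher and 30.2% lower. Between 800 and 1600 codons the median was -0.08.

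The largest falls were also on genes of different roles. Many of their treated values rest on few counts, since 1 count was 4.80, 3.82, 1.55 and 2.46 CPM in the 4 treated libraries. HNRNPD, which encodes an AU-rich element binding protein (AUF1), had 28.8, 53.5, 69.8 and 44.3 CPM with RocA, against 423 to 689.6 CPM (median 505) with DMSO, a change of -3.16 ± 0.15 (adjusted p = 1.1e-15). All 4 treated libraries were far below the lowest DMSO library. UBE2D3, a ubiquitin-conjugating enzyme, had 9.60, 19.1, 38.8 and 7.39 CPM with RocA, against 196 to 315 CPM (median 279) with DMSO, a change of -3.38 ± 0.24; Hs 936.T kept the most, and without its treated library the change was -4.60. The spliceosome gene BUD31 had 4.80, 11.5, 14.0 and 14.8 CPM with RocA and 97.6 to 200.3 CPM (median 142) with DMSO, a change of -3.47 ± 0.24.

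Signalling genes were among the falls. PIP5K1A, the lipid kinase that makes phosphatidylinositol 4,5-bisphosphate, had 4.80, 11.5, 20.2 and 4.92 CPM with RocA and 108 to 165 CPM (median 127) with DMSO, a change of -3.24 ± 0.26. GRB2, the adaptor that links growth factor receptors to RAS activation, had 9.60, 15.3, 20.2 and 7.39 CPM with RocA and 119.8 to 143 CPM (median 135) with DMSO, a change of -3.12 ± 0.22. The small GTPase gene ARF3 had 14.4, 11.5, 34.1 and 4.92 CPM with RocA and 124 to 208 CPM (median 168) with DMSO, a change of -3.02 ± 0.24. None of the 3 overlapped between groups, and all were highest with RocA in Hs 936.T. Without the treated Hs 936.T library the changes were -4.21 for PIP5K1A and -4.19 for ARF3.

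Both cytoplasmic poly(A)-binding protein genes among the falls shield mRNA tails and promote initiation. PABPC1 had 28.8, 76.4, 88.5 and 59.1 CPM with RocA, against 254 to 928 CPM (median 457) with DMSO, a change of -2.74 ± 0.23, and PABPC4 had 19.2, 57.3, 38.8 and 9.85 CPM with RocA, against 120.3 to 455 CPM (median 229.6) with DMSO, a change of -2.91 ± 0.20. PABPC1 differed between lines in its response (adjusted p = 0.0039, edgeR test of the line-by-treatment terms with Benjamini-Hochberg adjustment), with changes from -4.88 in NCI-H1650 to -1.81 in NCI-H520. RBBP7, a histone-binding chaperone, fell by 3.06 ± 0.19, and its change was -3.97 without the treated Hs 936.T library. NUP62 of the central nuclear pore channel had a change of -2.90 ± 0.22, and NAA50, an amino-terminal acetyltransferase, of -2.81 ± 0.16. EXO1, the exonuclease of mismatch repair, was read with 1, 0, 15 and 2 counts with RocA; its change was -2.76 ± 0.33, and -4.26 without the treated Hs 936.T library.

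**Figure D1:**
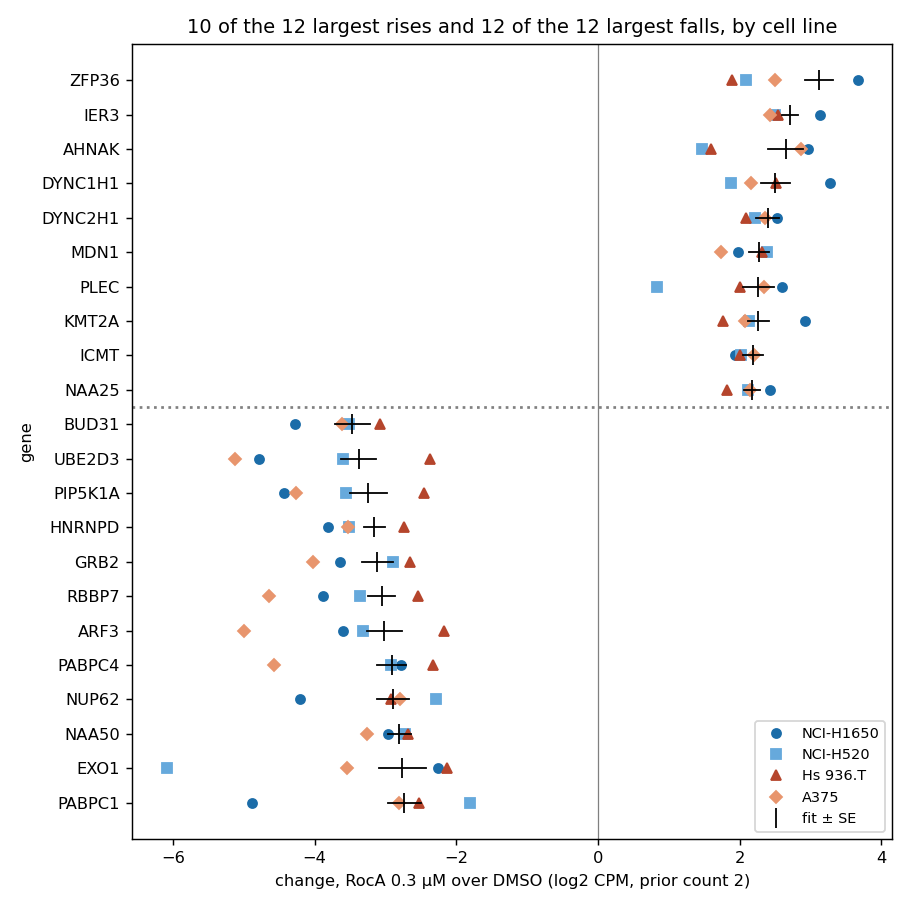
Change in log2 CPM (x axis, RocA 0.3 µM over the mean of the DMSO libraries of the line, prior count 2) for 10 of the 12 largest rises and the 12 largest falls (y axis), with 1 symbol per cell line and the fitted change ± SE in black. The fit was scaled over tested genes only and the line changes over all named genes, so the 2 are slightly offset. Genes were ranked only if each line had the same sign. By this rule every symbol of a rise lies right of 0 and every symbol of a fall left of 0. The Hs 936.T triangle is the least negative for UBE2D3 (-2.37) and ARF3 (-2.18).

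**Figure D2:**
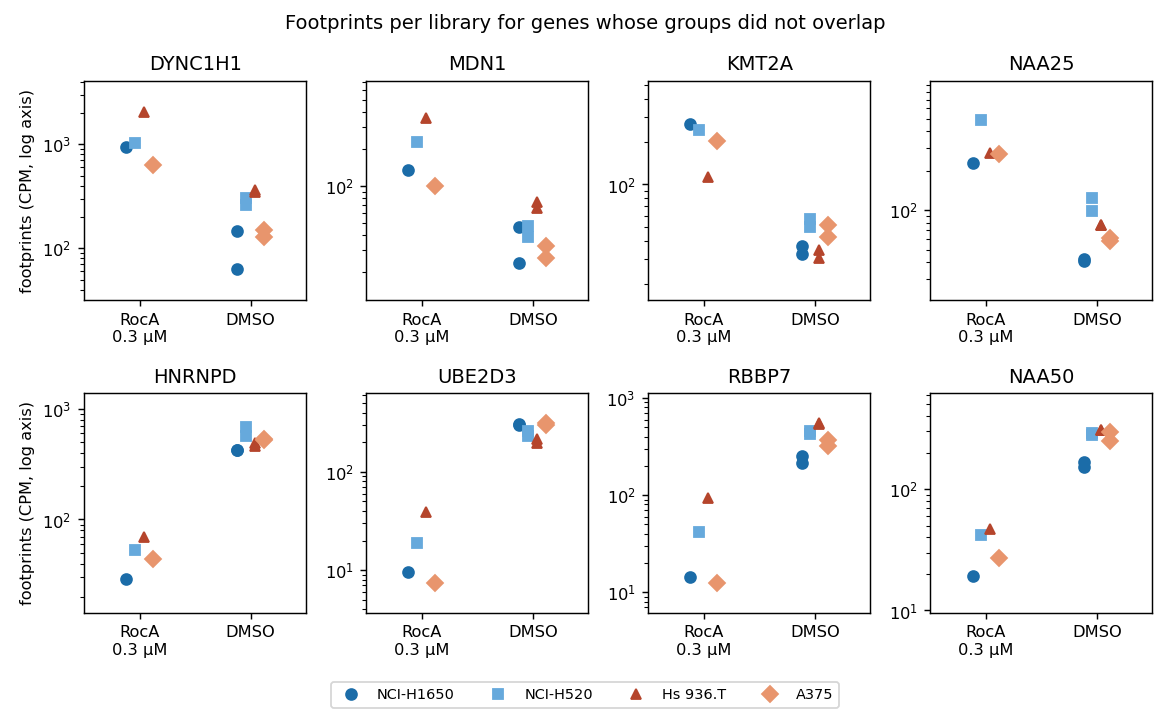
Footprint levels (y axis, CPM, log scale) in each library for 4 genes that rose and 4 that fell, RocA 0.3 µM at left and DMSO at right, 1 symbol per library and line. The treated libraries stand wholly above DMSO for DYNC1H1, MDN1, KMT2A and NAA25 and wholly below for HNRNPD, UBE2D3, RBBP7 and NAA50.

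The start of the transcript was examined because purine stretches are the RNA that rocaglates are known to use. Windows of 50 bases from the annotated start were taken from RefSeq (GRCh38.p14) for the 3883 of 6902 tested genes with a single start there; such a window is genomic and need not be the start used in these cells. The motif GAGA, on the transcribed strand, occurred in 13.1% of the 826 well-counted genes that were higher with RocA, in 29.0% of the 610 that were lower and in 22.7% of the 512 not called, against 23.2% of all 22031 such windows of the table. Over all tested genes with a window, well-counted or not, GAGA occurred in 12.69% of the higher, 27.35% of the lower and 23.18% of those not called. A run of at least 8 purines occurred in 9.32% of the higher genes, 22.6% of the lower and 19.1% of those not called. The motif AGAG, which overlaps GAGA, gave 14.0%, 29.0% and 25.8%. The median change was -0.19 over the 401 well-counted genes whose window held GAGA and 0.24 over the 1547 without it. These are descriptions of annotated windows, given with no test, and a motif is not shown to be a site.

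The windows of leading genes show how far single cases scatter around these shares. Each sequence below is 30 bases of the transcribed strand, 5′ to 3′, around the longest purine run of the 50-base window, and the capitals mark that run. The first 6 rose and the last 5 fell, and all were among the largest changes of genes with a single start.
ZFP36: AGcctgacttcagcgctcccactctcggcc
AHNAK: cgccagcagcctGAGGAAtgtggtggttgg
DYNC1H1: agtctgcggtGGGctagcggacggtccggc
DYNC2H1: ccctggcaaccgcGAAGctctgcggtcccg
MDN1: gatgacgtcAAAcgccgtgtgctcacccac
KMT2A: gcttcacttcacGGGGcgaacatggcgcac
BUD31: gtcGAGAAGcagctacccaagctccaggag
PIP5K1A: tgcttggctacccGGAGtgaagcggccggg
HNRNPD: cgcggcggcgccattaaagcGAGGAGGAGG
GRB2: agccAGGAGGtattgctgcttcggcgaccg
NUP62: ccaccccccagggctccctAAAGAGGGcca
The runs measured 2, 6, 3, 4, 3 and 4 bases in the 6 genes that rose, and 6, 4, 10, 6 and 8 in the 5 that fell. The 10-base run was that of HNRNPD (chr4:82373942-82373971, - strand) and the 8-base run that of NUP62 (chr19:49929455-49929484, - strand), and the PIP5K1A window (chr1:151198559-151198588, + strand) held a run no longer than those of DYNC2H1 and KMT2A although the gene was 9.46-fold lower. Among the rises, ZFP36 (chr19:39406847-39406876, + strand) had no more than 2 purines in a row, and AHNAK (chr11:62545783-62545812, - strand) had as many as BUD31 and GRB2.

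**Figure D3:**
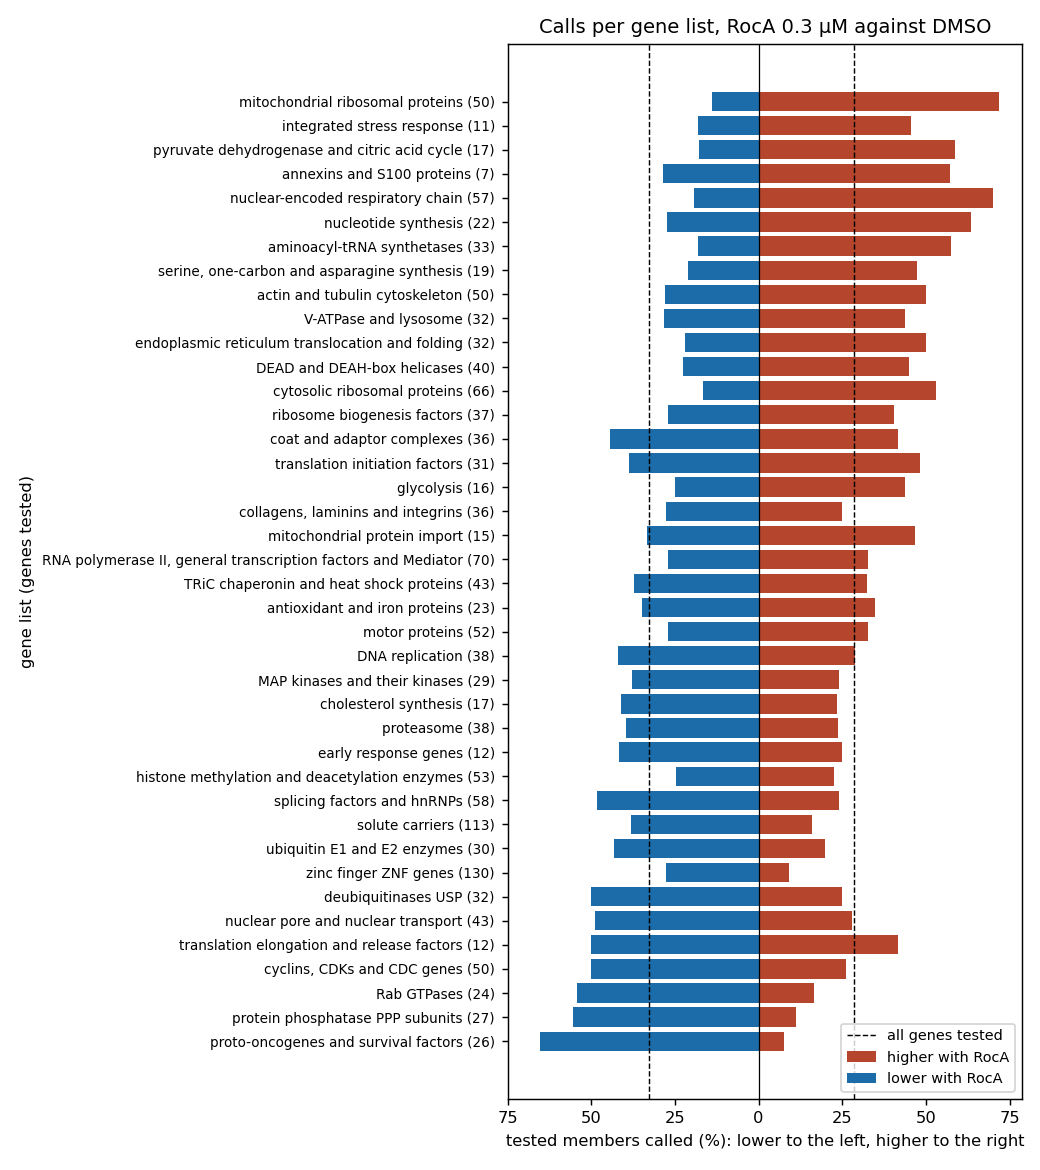
Share of tested members (x axis, %) called higher (right) or lower (left) with RocA 0.3 µM for 40 gene lists (y axis, number of tested genes in brackets, ordered by median change), with dashed lines at the shares over all tested genes (28.6% higher, 32.9% lower). Mitochondrial ribosomal and respiratory chain genes reach furthest right, and proto-oncogenes and phosphatase subunits furthest left.

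Gene families were described with 40 lists, by counts of called members and by the median, beside the 28.6% higher, 32.9% lower and median of -0.09 over all tested genes. Over the well-counted genes alone these were 39.2%, 33.5% and 0.07. The lists differed in depth: 66 of 66 tested cytosolic ribosomal protein genes were well-counted, but 14 of 130 ZNF genes. Shares of a list near either set of values are not particular to that list, and in lists of low counts fewer changes can be called. The lists of mitochondrial ribosomal proteins, the respiratory chain and the citric acid cycle had medians above that of all tested genes, and mitochondrial protein import had a median of 0.04. Of the mitochondrial ribosomal protein genes, which serve translation inside the organelle, 36 of 50 tested rose and 7 fell (median 0.84). MRPS27 had 345, 599.8, 546 and 522 CPM with RocA, against 112 to 186 CPM (median 175) with DMSO, without overlap, and a change of 1.73 ± 0.09. MRPS35 changed by 1.69 ± 0.10 and MRPL52 by 1.52 ± 0.11, while MRPL42 (-1.64 ± 0.19), MRPL24 (-1.55 ± 0.16) and MRPL3 (-1.47 ± 0.13) went the other way. The median over the list lay between 0.59 and 0.92 in the 4 lines.

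Nuclear-encoded genes of the respiratory chain, whose products carry electrons and make ATP in mitochondria, had more rises than falls: 40 of 57 tested rose and 11 fell (median 0.61). NDUFS8 of complex I had 446, 894, 359 and 443 CPM with RocA and 102 to 255 CPM (median 176) with DMSO, a change of 1.67 ± 0.10. ATP5F1C, the gamma subunit of ATP synthase, rose by 1.52 ± 0.08 and NDUFA7 by 1.58 ± 0.12. CYCS, cytochrome c, was the clearest exception, with 106, 115, 242 and 96.0 CPM with RocA and 452 to 1070.1 CPM (median 632) with DMSO, a change of -2.20 ± 0.12 and no overlap. SDHD of complex II fell by 1.47 ± 0.16 and NDUFC2 by 1.18 ± 0.12.

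In the citric acid cycle and pyruvate dehydrogenase, 10 of 17 tested rose and 3 fell (median 0.70). DLST, the succinyltransferase of the oxoglutarate dehydrogenase complex, had 475, 550.1, 580.5 and 478 CPM with RocA against 125 to 156 CPM (median 143) with DMSO, a change of 1.98 ± 0.09. DLD, the dehydrogenase subunit of the same complex, had 48.0, 7.64, 135 and 61.5 CPM with RocA and 169.7 to 413 CPM (median 220.5) with DMSO, a change of -1.81 ± 0.18. The subunits thus stood on opposite sides, and for each gene the treated and DMSO libraries did not overlap. SUCLA2 rose by 1.21 ± 0.12, and PDHA1 of pyruvate dehydrogenase fell by 1.07 ± 0.13. Among 15 genes of mitochondrial protein import, 7 rose, led by TIMM50 (1.28 ± 0.09), and 5 fell; without NCI-H520, 4 rose and 6 fell.

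The other metabolic lists each held rises and falls. Of the genes of nucleotide synthesis, 14 of 22 tested rose and 6 fell (median 0.52). ATIC, which completes purine synthesis, had 700.5, 1452, 1628 and 857 CPM with RocA and 286 to 629 CPM (median 360) with DMSO, without overlap, a change of 1.58 ± 0.08; GUK1, guanylate kinase, rose by 2.56 ± 0.20 and PFAS by 1.65 ± 0.14, while PRPS1, which makes the ribose donor, fell by 1.53 ± 0.18. In serine, one-carbon and asparagine synthesis, 9 of 19 tested rose and 4 fell (median 0.35): MTHFD2, an enzyme of mitochondria, rose by 1.53 ± 0.08 and PSAT1 by 1.38 ± 0.09, and PSPH fell by 2.16 ± 0.31. In cholesterol synthesis, 4 of 17 tested rose and 7 fell (median -0.11), with FDFT1, squalene synthase, at -1.42 ± 0.13. In glycolysis, 7 of 16 tested rose and 4 fell (median 0.12). LDHA, lactate dehydrogenase A, had 5124, 8465, 5552 and 9166 CPM with RocA and 1642 to 2805 CPM (median 2172) with DMSO, without overlap, and rose by 1.77 ± 0.06, against -1.01 ± 0.09 for its partner LDHB. GPI rose by 1.71 ± 0.07. The glycolysis median was 0.38 in Hs 936.T and -0.58 to -0.13 in the other lines.

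The translation machinery was mixed. Of the cytosolic ribosomal protein genes, 35 of 66 tested rose and 11 fell (median 0.27), with medians from 0.05 in Hs 936.T to 0.54 in NCI-H520. RPS13 had 1506, 7059.6, 1993 and 3668 CPM with RocA, against 432 to 2238 CPM (median 1222) with DMSO, a change of 1.51 ± 0.09. RPL36A had 1526, 3877, 2679 and 3191 CPM with RocA, against 552 to 1456 CPM (median 1345) with DMSO, a change of 1.36 ± 0.08, and FAU rose by 1.38 ± 0.08. RPL7 had 657, 1715, 832 and 1130 CPM with RocA, against 1425 to 3667 CPM (median 2281) with DMSO, a change of -1.09 ± 0.08. Many such genes have processed copies elsewhere in the genome, and the treatment of shared reads is not stated, so such values are uncertain.

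Ribosomal protein mRNAs begin with a terminal oligopyrimidine tract, a C followed by pyrimidines, through which growth signals set their translation. Most genes had it whether they rose or fell. By a C and at least 4 further pyrimidines at the annotated start, 17 of 21 genes that rose, 5 of 7 that fell and 13 of 15 not called had it, against 6.41% of the 3883 tested genes with a single start. The first 20 bases of 3 genes that rose (RPS13, FAU, RPL36A) and 3 that fell (RPL24, RPL38, RPSA) are given with the tract in capitals. These had the 3 largest changes in each direction among called genes with the tract, genes on the chromosome of RPL7 being left out. RPL24, RPL38 and RPSA lie outside the rule for named genes and were chosen after their values were seen.
RPS13: CCTTTCgttgcctgatcgcc
FAU: CTCTTTCTCgactccatctt
RPL36A: CTTTCTTTCCgcgccgatag
RPL24: CTTTCTTTTCgccatctttt
RPL38: CTTTTTCgtccttttccccg
RPSA: CTTTTCCgtgctacctgcag
The tracts were 6, 9 and 10 bases long in the 3 that rose and 10, 7 and 7 in the 3 that fell. RPL24 changed by -0.78 ± 0.09, RPL38 by -0.74 ± 0.09 and RPSA by -0.54 ± 0.08.

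Initiation factor genes went both ways: 15 of 31 tested rose and 12 fell (median 0.18). EIF4B, a cofactor of eIF4A, had 796, 1421, 1142 and 1327 CPM with RocA, against 246 to 484 CPM (median 393) with DMSO, a change of 1.70 ± 0.08. EIF3C, a subunit of the scaffold eIF3 with a near-identical copy, rose by 1.50 ± 0.07, and EIF3F by 1.72 ± 0.08. Against these, EIF5, which triggers GTP hydrolysis at the start codon, had 19.2, 45.8, 32.6 and 22.2 CPM with RocA and 104 to 299 CPM (median 132) with DMSO, a change of -2.28 ± 0.18. EIF4G2, a relative of eIF4G that lacks the cap-binding partner site, fell by 1.80 ± 0.13. PDCD4, which binds and inhibits eIF4A, fell by 2.14 ± 0.25, and its change was -2.99 without the treated Hs 936.T library. In EIF4B, EIF3C, EIF5 and EIF4G2 the treated and DMSO libraries did not overlap.

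The targets in the title of the study gave different results. EIF4A1 had 1607, 3476, 2404 and 5650.3 CPM with RocA, against 1523 to 5210.3 CPM (median 2642) with DMSO, a change of 0.21 ± 0.07 (adjusted p = 0.015) whose call ended under several settings. The change was 0.18 with all 16 libraries in the fit (adjusted p = 0.12), 0.11 with no filter on low counts (0.31) and 0.09 with only genes of at least 50 CPM tested (0.22). It was 0.13 without the treated NCI-H520 library, 0.10 without the treated A375 library, and 0.15 and 0.16 without DMSO replicate 1 or 2 of NCI-H520. EIF4A2 rose by 1.05 ± 0.09, with changes of 0.82 to 1.03 in the 4 lines. The fitted change lies above all of these because line changes were scaled over all named genes and the fit over tested genes only. DDX3X was not called (0.31 ± 0.49, adjusted p = 0.62), with a change of 1.89 in A375 and -0.96 to -0.50 in the other lines. Without the treated A375 library the sign turned and the gene was called lower, at -0.71 (adjusted p = 6.7e-05), and likewise without that line, at -0.63 (adjusted p = 0.00031).

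Of the elongation and release factor genes, 5 of 12 tested rose and 6 fell (median -0.45). EIF5A had 696, 661, 495 and 886 CPM with RocA and 1279 to 2815 CPM (median 1536) with DMSO, a change of -1.26 ± 0.09, and GSPT1, the release factor GTPase, fell by 1.70 ± 0.15, while EEF1D rose by 1.01 ± 0.09. Of the aminoacyl-tRNA synthetase genes, which charge tRNAs, 19 of 33 tested rose and 6 fell (median 0.42). The mitochondrial tyrosine enzyme YARS2 had 163, 259.8, 112 and 239 CPM with RocA and 36.4 to 92.4 CPM (median 55.3) with DMSO, without overlap (1.74 ± 0.14), QARS1 rose by 1.62 ± 0.10 and CARS1 by 1.37 ± 0.12. The mitochondrial enzymes FARS2 (-1.19 ± 0.37), NARS2 (-1.11 ± 0.27) and LARS2 (-0.88 ± 0.19) were the lowest. For ribosome biogenesis, 15 of 37 tested rose and 10 fell (median 0.24), with TSR1 at 1.51 ± 0.10 and PES1 at -1.40 ± 0.15. Of the DEAD and DEAH-box helicases, 18 of 40 tested rose and 9 fell (median 0.27). DDX52 rose by 1.60 ± 0.11 and DDX31 by 1.73 ± 0.13, and DDX6, a helicase of mRNA repression, fell by 2.27 ± 0.16.

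Splicing and nuclear transport genes had more falls than rises. Of the splicing factor and hnRNP genes, 14 of 58 tested rose and 28 fell (median -0.25). Beside HNRNPD, HNRNPC had 106, 275, 192 and 172 CPM with RocA, against 549 to 1134 CPM (median 986) with DMSO, a change of -2.20 ± 0.11 and no overlap. PTBP1, which represses exons through pyrimidine tracts, rose by 1.19 ± 0.08, and SF3B1 of the U2 particle by 1.64 ± 0.16. Nuclear pore and transport genes gave 12 rises and 21 falls among 43 tested genes (median -0.45). The pore scaffold gene NUP205 rose by 2.01 ± 0.09 and NUP155 by 1.35 ± 0.09. The fall of NUP62 was joined by RANGAP1, which stimulates the GTPase Ran, with 43.2, 22.9, 31.0 and 46.8 CPM with RocA and 112 to 244 CPM (median 129.6) with DMSO, a change of -1.99 ± 0.17. Of the general transcription and Mediator genes, 23 of 70 tested rose and 19 fell (median 0.04), with TAF1 at 2.08 ± 0.15 and POLR3C at -2.27 ± 0.23. Of 406 named ZNF zinc finger genes, 130 had enough counts to be tested, and 12 rose and 36 fell, with a median of -0.38. Of the histone-modifying enzymes, 12 of 53 tested rose and 13 fell (median -0.17); KMT2B rose by 1.66 ± 0.20 with KMT2A, and HDAC2 fell by 1.45 ± 0.13. Without the treated A375 library 7 of these enzyme genes rose.

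Cell cycle genes gave 13 rises and 25 falls among 50 tested genes (median -0.46), with the median between -0.79 and -0.46 in the 4 lines. CDC6, which loads the replicative helicase on origins, had 9.60, 0, 41.9 and 24.6 CPM with RocA, against 56.1 to 236 CPM (median 126) with DMSO, a change of -2.57 ± 0.23. CCNL1, a cyclin linked to splicing, had 182, 153, 116 and 167 CPM with RocA and 30.5 to 51.5 CPM (median 44.3) with DMSO, a change of 1.87 ± 0.16. Neither overlapped between groups. The DNA replication genes gave 11 rises and 16 falls among 38 tested genes (median -0.10); RPA3 rose by 1.86 ± 0.10 and POLD1 by 1.19 ± 0.13, with MCM8 at -2.59 ± 0.28, or -3.58 without the treated Hs 936.T library.

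Proto-oncogenes and survival factors held more falls than rises. Of 32 named genes, 26 were tested, of which 2 rose (7.69%) and 17 fell (65.4%), and the median was -1.06, from -1.62 in NCI-H1650 to -0.59 in Hs 936.T. Without NCI-H520 it was -0.95, with 15 of 29 lower, and the median of the protein phosphatase subunits was then -0.99. CTNNB1, beta-catenin, had 158, 183, 972 and 182 CPM with RocA, against 593 to 2683 CPM (median 902) with DMSO, a change of -1.81 ± 0.12. The groups overlapped because Hs 936.T with RocA lay above the DMSO libraries of NCI-H1650 and A375. The transcription factor gene ETS1 had 4.80, 3.82, 51.2 and 19.7 CPM with RocA and 10.3 to 285 CPM (median 88.5) with DMSO, a change of -2.41 ± 0.23. The 2 that rose were BIRC5, survivin (0.82 ± 0.12), and the BCL2 relative MCL1 (0.47 ± 0.10).

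Protein phosphatase subunits gave 3 rises and 15 falls among 27 tested genes (median -1.01). PPP3R1, the regulatory subunit of calcineurin, had 33.6, 38.2, 40.4 and 14.8 CPM with RocA, against 107 to 247 CPM (median 133) with DMSO, a change of -2.26 ± 0.19. PPP6C, a catalytic subunit, had 451, 409, 312 and 409 CPM with RocA and 125 to 178 CPM (median 147) with DMSO, a change of 1.45 ± 0.10. In both, the treated and DMSO libraries did not overlap. The MAP kinases and their regulators gave 7 rises and 11 falls among 29 tested genes (median -0.10), with MAPK14, p38 alpha, at -2.17 ± 0.31 and MAP2K7 at 1.24 ± 0.17; 2 rose without the treated Hs 936.T library and 4 without that of A375. Among early response genes, 3 of 12 tested rose and 5 fell (median -0.14), the rises being ZFP36, IER3 and KLF2 (1.21 ± 0.31).

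The vesicle traffic lists each held rises and falls. Of the Rab GTPase genes, the switches of vesicle traffic, 4 of 24 tested rose and 13 fell (median -0.76). RAB5C of early endosomes had 24.0, 22.9, 129 and 64.0 CPM with RocA, against 144 to 513 CPM (median 300.4) with DMSO, a change of -2.23 ± 0.15, and no overlap. RAB13 rose by 0.94 ± 0.11 and RAB11A by 0.52 ± 0.09. Coat and adaptor genes gave 15 rises and 16 falls among 36 tested genes (median 0.22), with AP1S2 at 1.54 ± 0.12 and AP2M1, the cargo-binding clathrin adaptor subunit, at -1.99 ± 0.15. Lysosomal genes gave 14 rises and 9 falls among 32 tested genes (median 0.31); the protease gene CTSC had 1151, 1368, 681 and 2068 CPM with RocA and 177 to 662 CPM (median 355) with DMSO (1.92 ± 0.08), and CTSD rose by 1.80 ± 0.15. For translocation and folding at the endoplasmic reticulum, 16 of 32 tested rose and 7 fell (median 0.31). SRPRA, the receptor of the signal recognition particle, rose by 1.82 ± 0.10, and SEC61A1 of the translocation channel fell by 1.13 ± 0.11. Solute carriers gave 18 rises and 43 falls among 113 tested genes (median -0.31), and without the treated Hs 936.T library 11 rose; their median was -0.90 in NCI-H520 and -0.12 in Hs 936.T.

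The ubiquitin enzyme and deubiquitinase lists held more falls than rises, and the proteasome list lay nearer to the shares over all tested genes. The proteasome genes gave 9 rises and 15 falls among 38 tested genes (median -0.13), led upward by PSMG2 (1.35 ± 0.14) and PSMB5 (1.31 ± 0.11) and downward by PSME3 (-2.66 ± 0.15) and PSMD1 (-1.66 ± 0.12). Ubiquitin E1 and E2 genes gave 6 rises and 13 falls among 30 tested genes (median -0.32); BIRC6, a giant E2 and E3 enzyme, rose by 1.69 ± 0.11. The USP deubiquitinases gave 8 rises and 16 falls among 32 tested genes (median -0.44), with USP14 at 1.18 ± 0.10 and USP1 at -1.73 ± 0.22; 5 rose without the treated NCI-H520 library and 3 without that of A375. Chaperone genes were even, with 14 rises and 16 falls among 43 tested genes (median -0.03), with HSP90AA1 at 1.66 ± 0.10, CCT3 at 1.22 ± 0.08 and HSPH1 at -1.90 ± 0.16.

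Cytoskeletal genes had 25 rises and 14 falls among 50 tested genes (median 0.34). PFN1, profilin, which feeds actin growth, fell by 1.60 ± 0.09, against the rise of AHNAK. Motor protein genes gave 17 rises and 14 falls among 52 tested genes (median -0.06), with DCTN4 at 1.49 ± 0.12. Collagen, laminin and integrin genes gave 9 rises and 10 falls among 36 tested genes (median 0.07), with the NCI-H520 median at -1.01 and the others from -0.20 to 0.12; without the treated NCI-H1650 library 6 fell, and without NCI-H520 15 of 44 rose. Of 7 annexin and S100 genes, 4 rose, led by S100A6 (1.54 ± 0.07), and 2 fell, and without NCI-H520 the median was -0.11 over 10 genes, against 0.69 with it. Of 23 antioxidant and iron genes 8 rose and 8 fell, with GPX4, which removes lipid peroxides, at 1.79 ± 0.13 and NQO1 at -1.22 ± 0.08. Of 11 genes of the integrated stress response 5 rose and 2 fell, with medians of -0.79 in NCI-H520 and 0.35 to 0.73 in the other lines. XBP1, a transcription factor of the unfolded protein response, had 336, 287, 178 and 241 CPM with RocA, against 34.7 to 89.7 CPM (median 58.7) with DMSO, a change of 2.11 ± 0.16, and SQSTM1 rose by 1.22 ± 0.09.

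The most abundant genes under DMSO rose or fell by less than the leading genes did. EEF1A1 had 10939, 32394, 14539.7 and 12106 CPM with RocA, against 7527 to 20261 CPM (median 10959) with DMSO (0.53 ± 0.06). PRDX1 rose by 0.84 ± 0.07, and TUBA1B by 0.97 ± 0.06, which shares near-identical copies, as do the actins. ACTG1 rose by 0.86 ± 0.07, and ENO1 fell by 0.37 ± 0.07.

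The response of single genes differed between lines for 228 of 6902 genes (3.3%) in the edgeR test of the 3 line-by-treatment terms, among them 157 of the 4246 called genes. Without Hs 936.T DMSO replicate 1 it called 134. The 4 residual degrees of freedom came only from the DMSO pairs, so the spread between treated cultures of 1 line is not in this test. By list, such genes were most numerous among cytosolic ribosomal proteins (25 of 66), then actin and tubulin genes (9 of 50), solute carriers (6 of 113) and proto-oncogenes (5 of 26), and 4 of 16 glycolysis genes were among them. The genes described next are those with the smallest p in this test. SLC2A1, the glucose transporter GLUT1, had 67.2, 45.8, 110.2 and 22.2 CPM with RocA, against 52.5 and 62.0 CPM in Hs 936.T and 403 to 565 CPM in the other lines with DMSO. Treated Hs 936.T was above both its DMSO libraries, and in the other lines the treated library was far below its own. Its change was 0.93 in Hs 936.T, and -2.85 in NCI-H1650, -3.47 in NCI-H520 and -4.14 in A375 (adjusted p = 1.2e-09 for the line-by-treatment terms).

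Of the others, HK2, GAPDH and ENO2 also had their highest change in Hs 936.T. HK2, hexokinase 2, changed by 0.39 in Hs 936.T and by -2.85 to -1.91 in the other lines (adjusted p = 5.7e-05 for the line-by-treatment terms). GAPDH changed by 0.37 in Hs 936.T and by -0.88 to -0.49 elsewhere (adjusted p = 1.5e-08 in that test). ENO2, an enolase, changed by 0.83 in Hs 936.T and by -1.09 to -0.32 in the others (adjusted p = 7.2e-05 in that test). None of the 4 was called across lines in the fit of 12 libraries. SLC2A1 was called lower with DESeq2 (-2.04, adjusted p = 0.0077), with all 16 libraries (-1.81, adjusted p = 0.031) and with only genes of at least 50 CPM (-1.92, adjusted p = 0.043). HK2 was called lower with DESeq2 (-1.21, adjusted p = 0.0042) and GAPDH with all 16 libraries (-0.32, adjusted p = 0.023), and SLC2A1, HK2 and GAPDH were also called lower with no filter. Without the treated Hs 936.T library the fitted changes were -3.50 for SLC2A1, -2.26 for HK2, -0.62 for GAPDH and -0.68 for ENO2, and all 4 were called lower.

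The other 6 of the 10 well-counted genes with the smallest p between lines had varied roles. ADAM10, a sheddase, changed by -4.05 in NCI-H1650, -2.17 in NCI-H520, -2.09 in A375 and -0.59 in Hs 936.T; its fitted change was -1.41 ± 0.34, and -2.48 without the treated Hs 936.T library. The adhesion receptor gene ADGRG1 changed by 0.27 in Hs 936.T and by -2.28 to -0.89 in the others. The ribosomal protein genes RPL30 (-0.21) and RPL6 (-0.50) had their lowest changes in Hs 936.T, and their highest in NCI-H520, at 1.11 and 0.53. The call of RPL30 across lines (0.68 ± 0.16) ended without the treated A375 library (0.60). SDCCAG8, a centrosome gene, was higher with RocA in both lung lines (2.07 and 2.29) and lower in both melanoma lines (-0.56 and -1.45). PCBP2, a poly(C)-binding protein, changed by -0.02 in NCI-H520 and by -1.79 to -0.88 in the others. The helicase gene DDX3X changed by 1.89 in A375 and by -0.96 to -0.50 in the others (adjusted p = 0.00044 in that test).

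**Figure D4:**
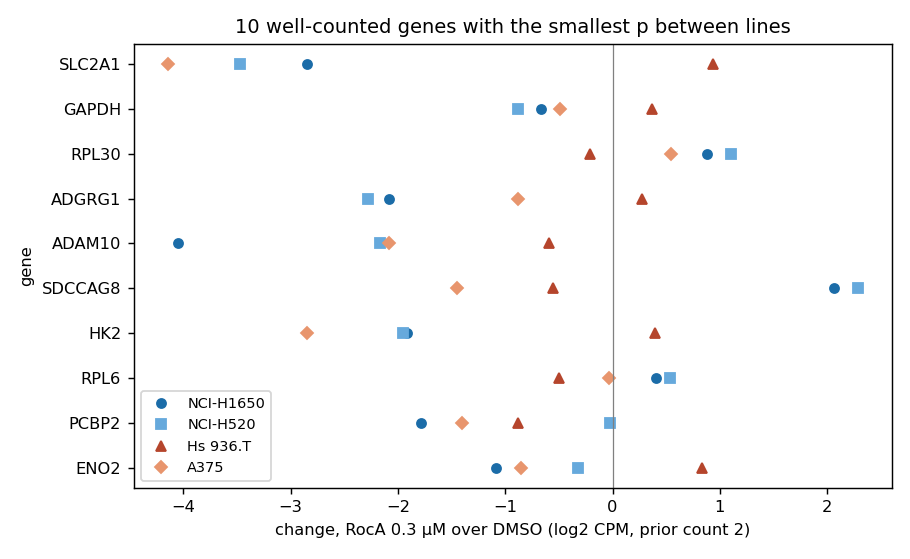
Change in log2 CPM (x axis, RocA 0.3 µM over the mean of the DMSO libraries of the line, prior count 2) for the 10 well-counted genes with the smallest p of the line-by-treatment test (y axis), 1 symbol per cell line. Hs 936.T is right of the other lines for SLC2A1, GAPDH, HK2, ENO2, ADGRG1 and ADAM10, and left of them for RPL30 and RPL6.

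Hs 936.T also had the narrowest response over the well-counted genes, with an SD of changes of 0.89, against 1.11 in A375, 1.20 in NCI-H1650 and 1.22 in NCI-H520, and it had the deepest treated library. The part of depth in that spread was not tested. Across the 3347 well-counted genes, changes of 2 lines correlated at r of 0.719 to 0.826; genes are not independent replicates, and each line has its own DMSO libraries.

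The 0.3 µM libraries were set against the 4 libraries at 3 µM in a fit without the DMSO libraries. The 3 µM libraries held 62614 to 375173 counts over named genes, so low values there rest on few counts. Few genes differed: of 4000 tested, 291 (7.28%) were called, 168 higher at 0.3 µM (4.2%) and 123 lower (3.08%), by edgeR (quasi-likelihood, Benjamini-Hochberg). DESeq2 called 51, and without NCI-H520 or without Hs 936.T edgeR called 108 in each case. In a fit of all 16 libraries 181 were higher and 70 lower at 0.3 µM. NUP210, which encodes a membrane anchor of the nuclear pore, led the genes higher at 0.3 µM, with 158, 231, 186 and 12.3 CPM at 0.3 µM and 39.1, 70.1, 41.3 and 0 CPM at 3 µM in the 4 lines, a log2 difference of 1.95 ± 0.27 (adjusted p = 7.0e-08). The zyxin gene ZYX had 59.1, 6.79, 93.5 and 125 CPM at 0.3 µM and 0, 3.19, 22.0 and 56.5 CPM at 3 µM, a difference of 1.57 ± 0.33. RNF126, a ubiquitin ligase, had 29.6, 132, 69.0 and 103 CPM at 0.3 µM and 0, 41.4, 24.8 and 48.0 CPM at 3 µM, a difference of 1.42 ± 0.28. Each was higher at 0.3 µM in all 4 lines. RHBDD2 (1.80 ± 0.44) and TMEM165 (1.51 ± 0.43) followed; without NCI-H520 neither was called, at 1.40 and 1.44. TMEM165 was also not called without Hs 936.T (1.29) or A375 (1.61), and RHBDD2 was at 2.65 without A375.

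Lower at 0.3 µM was SARNP, of mRNA export, with 39.4, 64.5, 41.4 and 41.8 CPM at 0.3 µM and 91.2, 112, 110.2 and 90.3 CPM at 3 µM, a difference of -1.16 ± 0.25. BABAM1, of the BRCA1-A complex, had 64.0, 30.6, 35.3 and 101 CPM at 0.3 µM and 117, 60.5, 79.9 and 178 CPM at 3 µM, a difference of -0.98 ± 0.25. GTF2F1, a subunit of TFIIF (-1.15 ± 0.27), was not called without NCI-H520 (-1.05), and RBM34 (-0.98 ± 0.32) was not called without that line (-0.82), without Hs 936.T (-0.96) or without A375 (-1.16). TTC3 (-1.12 ± 0.25) was lower at 0.3 µM in 3 lines and higher in A375. Between doses, DESeq2 did not call TTC3 and gave the other 9 of these 10 genes no adjusted p.

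**Figure D5:**
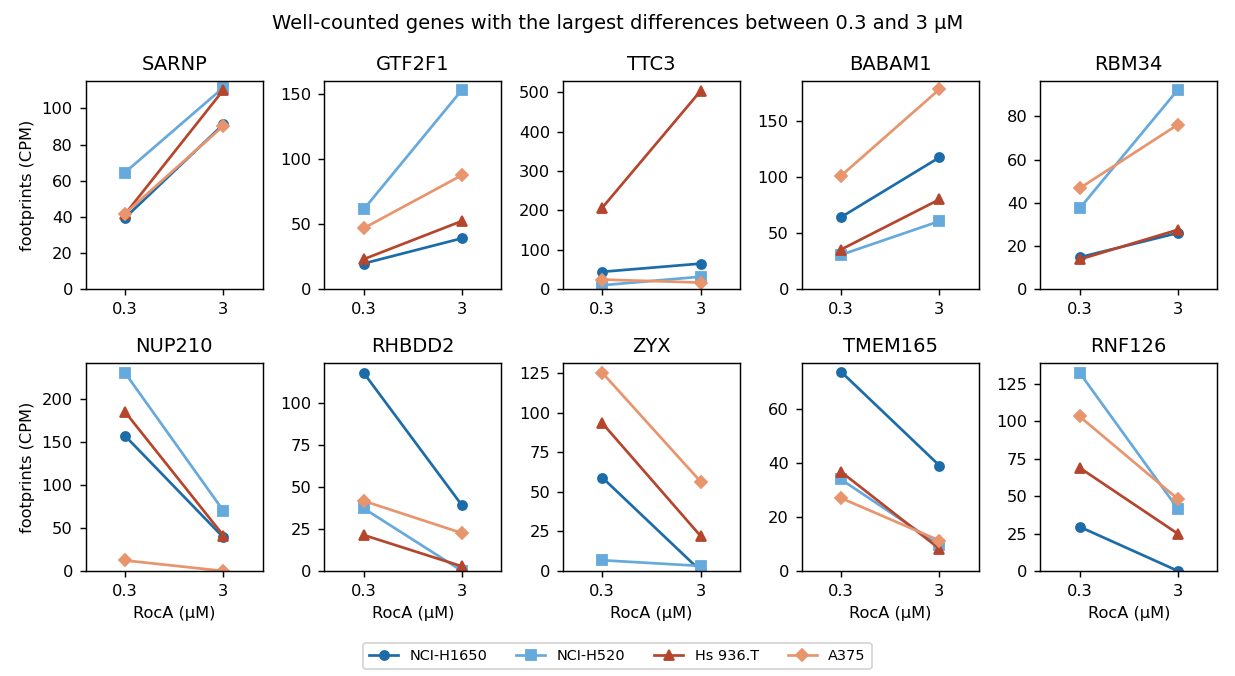
Footprint levels (y axis, CPM scaled over all 16 libraries) at RocA 0.3 µM (left) and 3 µM (right) in each cell line, 1 line and symbol per cell line, for the 5 well-counted named genes with the largest called difference in each direction. The upper row is lower at 0.3 µM, except for TTC3 in A375, and the lower row is higher at 0.3 µM in every line.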

How the data were processed

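Per the labels, ribosome profiling libraries were made from RNase I footprints of 4 cell lines after 30 min in RocA or DMSO. The deposited tables hold whole-number footprint counts per transcript made by the authors. The submitters' processing notes name CASAVA 1.8, Bowtie2 2.1.0, TopHat2 2.0.9 and the build hg38; the counting tool, annotation and use of strand are not given in the sources used here. Total counts over named genes were 187045 to 731430 in treated and 716951 to 4064848 in DMSO libraries, which limits the precision for low genes.

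Each table has 182398 rows, of which 93916 have a length; the others hold no counts. Runs of neighbouring lengths (codons minus 10) were matched to GENCODE release 29, a score of at least 10 natural log units being required, and 76.3% of rows with a length matched. One row per gene was kept, the highest sum over 16 files. That row can be a short transcript and need not hold the whole coding sequence of the gene. Of 19940 coding genes 12981 were named, and decoy genes with altered lengths passed at 0.786% of the rate of true ones. A name is therefore an inference from lengths.

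Counts were tested with edgeR 4.0.16 (limma 3.58.1, R 4.3.3): filterByExpr with a minimum count of 10, TMM scaling, quasi-likelihood fit with terms for cell line and treatment, Benjamini-Hochberg adjustment, threshold 0.05. A line-by-treatment model and a fit of the 0.3 and 3 µM libraries were made likewise. CPM and the changes of single lines used totals TMM-scaled over all named genes, and the fits used TMM over tested genes only. Fitted changes and line changes are therefore offset: the median over tested genes was -0.09 in the fit and -0.27 to -0.14 by line. DESeq2 1.42.0 was an alternative. Since nothing says that the DMSO pairs were separate cultures, p-values measure the spread between these samples, which may be technical. In the comparison with DMSO, part of that spread was between DMSO libraries of the same line. Its p-values therefore do not rest on the lines alone as replicates. Each test was run on simulated data with changes planted in 200 genes and none in the others. The comparison with DMSO (6902 genes) recovered 73% of 2-fold and 99% of 4-fold changes, with 4.97% of calls false. In the real data 61.5% of genes were called in that comparison, so these rates need not hold there. The comparison of doses (4000 genes) recovered 74% and 99%, with 4.95% false. The line test (6902 genes) recovered 72.5% of 4-fold differences, planted only as rises in A375, with 2.68% false. Other tools were Python 3.11.15, NumPy 2.4.6, pandas 2.3.3, numba 0.67.0 and matplotlib 3.10.9.

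The gene lists and the rule for named genes were chosen with earlier results of these data known. The rule names the 12 largest called rises and falls among genes of at least 50 CPM with 1 sign in 4 lines, up to 3 called genes each way per list (at least 10 CPM), the targets in the series title, the 10 smallest p between lines, the 5 largest called dose differences each way, and the 8 most abundant genes under DMSO. Some of these, and 1 start window, are not reported here, and genes with 3 or fewer treated counts are not named. At the 50 CPM limit, AEN (50.0 CPM, change -0.72) lay just outside and PDCD2L (50.0 CPM, change 1.17) just inside. Alternatives covered scaling, test, filters, depth, the choice of row, the score, and each library or line left out.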

Additional observations from a re-analysis of the deposited data

Results flagged for a closer look

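Results of 2 kinds stood out among the 156 genes examined, almost all of them named here. The first was 1 line whose change lay far from those of the other 3 (Dixon's criterion for 4 values, critical value 0.829). The second was genes whose response differed between lines by the edgeR test of the line-by-treatment terms with Benjamini-Hochberg adjustment. By chance the first criterion marks about 1 in 20 groups of 4 values; here it marked 11 of 156 genes and 0 of 40 lists.

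The line that stood apart was NCI-H520 for CDC6 (-6.40, against -2.46 to -2.29 in the others), where the treated library held 0 counts of the gene. It was also NCI-H520 for YARS2 (2.33), TSR1 (1.77) and MRPL52 (1.71). Hs 936.T stood apart for DDX6 (-1.95), ENO1 (-0.17) and PSMB5 (0.78). A375 did so for DDX3X (1.89), MRPL24 (-2.33) and RPSA (-0.46), and NCI-H1650 for XBP1 (3.08).

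For the genes with the smallest p between lines and DDX3X, the adjusted p of the edgeR line-by-treatment test was 1.2e-09 for SLC2A1, 1.5e-08 for GAPDH, 2.8e-06 for RPL30, 3.3e-06 for ADGRG1, 2.4e-05 for ADAM10, 5.2e-05 for SDCCAG8, 5.7e-05 for HK2, 5.8e-05 for RPL6, 7.2e-05 for ENO2, 7.2e-05 for PCBP2 and 0.00044 for DDX3X. Among genes called across lines it was 0.00079 for HSP90AA1, 0.0039 for PABPC1, 0.0050 for CTSD, 0.0064 for CTNNB1, 0.012 for ACTG1, 0.013 for PDCD4 and 0.014 for RPS13. It was 0.018 for ZFP36, 0.018 for UBE2D3, 0.030 for RPL24, 0.032 for GPX4, 0.032 for XBP1, 0.042 for AP2M1 and 0.048 for GSPT1.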

How the results depend on the processing

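Against DMSO, the count of called genes stayed within 1.5 times of 4246 (1977 higher, 2269 lower) with all 16 libraries, RLE size factors, DESeq2, no filter, thinned libraries, another row per gene and any line left out. It was 2483 (1192 and 1291) with only genes of at least 50 CPM, where fewer genes were tested, 2746 (1289 and 1457) with a match score of 20, which names fewer genes, and 1590 (749 and 841) with no cell-line term. Leaving out 1 library gave 3836 to 4205 called, 1620 to 1961 higher and 2115 to 2411 lower. The line-by-treatment test called 134 to 325 genes with 1 DMSO library left out; it was 134 without Hs 936.T DMSO replicate 1.

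Between doses, DESeq2 called 51 genes (32 higher and 19 lower at 0.3 µM) and the fit of 16 libraries called 251 (181 and 70). Without NCI-H520 108 were called (73 and 35) and without Hs 936.T 108 (67 and 41); the cause was not tested. Of 3827 values over 156 genes, 9 changed sign, all of genes not called in the fit of 12 libraries, and 4 of these passed the threshold in the new direction: ENO2 without Hs 936.T or its treated library, and DDX3X without A375 or its treated library. ENO2 was -0.076 with DESeq2 and -0.61 without Hs 936.T, with -0.68 to 0.35 over single libraries left out. SDCCAG8 was -0.19 without NCI-H520 (-0.18 to 1.35), and DDX3X -0.63 without A375 (-0.71 to 0.77). No paired analysis was possible because the treated libraries carry no replicate number; pairing by cell line was already a term of the fit. Depth limited the treated libraries most, with 187045 counts over named genes in NCI-H1650, so changes of genes with few treated counts are the least certain.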
